A study of Mus musculus with 4 samples.

Results

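The Wnt/β-catenin genes described here are 10 genes of the 19840 in the deposited table: the target genes T, Cdx1, Cdx2, Sp5, Axin2 and Nkd1, the DNA-binding partners Lef1, Tcf7 and Tcf7l1, and Ctnnb1, which codes for β-catenin. They were picked by symbol, as genes of the pathway that the GSK3 inhibitor of naive stem cell medium can switch on. Earlier results of the same comparison were known when they were picked, so their fold changes and adjusted p-values are given as a description. Each of the 10 was found by its Ensembl identifier, and each had reads enough for the authors to give it an adjusted p-value.

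Naive mouse embryonic stem cells were grown in 2i/LIF, a medium with inhibitors of MEK and GSK3 and the cytokine LIF. A pLKO.1 lentivirus brought in a hairpin that targets Lncenc1, a long noncoding RNA (shLincenc1, 2 libraries), or a control hairpin (shCtrl, 2 libraries), and puromycin selection lasted 2 days. The labels name the lines E14TG2a and R1 and do not say which line a library came from, which of the hairpins designed per gene it carried, or whether cultures were separate, so p-values measure only how these libraries vary, which may be technical. The deposited file gives 1 comparison of the groups and does not say which is the numerator. The groups are therefore named by their level of Lncenc1: Lncenc1-high, the numerator, with libraries HA and HB, and Lncenc1-low, with libraries LA and LB. Every fold change below is Lncenc1-high over Lncenc1-low.

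β-Catenin is the messenger of canonical Wnt signalling. Without a Wnt signal a destruction complex of Axin, APC and the kinases GSK3 and CK1 marks it for degradation. With a signal, or with GSK3 inhibited, β-catenin enters the nucleus and binds TCF and LEF factors at target genes. In naive stem cells its main known effect is to relieve repression by Tcf7l1 (also called Tcf3), while T, Cdx1, Cdx2, Sp5 and Axin2 respond as targets. T (brachyury) and the caudal factors Cdx1 and Cdx2 are better known from the primitive streak and the posterior embryo, and Cdx2 also from the trophectoderm.

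The promoters of T and Sp5 are shown because these genes had fold changes of opposite sign. RefSeq windows of 300 bases, from 250 before to 50 after a gene's start, were at hand for 9 of the 10 genes (14 windows, build GRCm38.p6). The windows were searched on both strands for the letters TCAAAG, the core of the TCF/LEF site, which read CTTTGA on the other strand. The motif lies in 16% of all 32851 promoter windows and in 3 of the 14 windows here, 1 each of T, Sp5 and Lef1. T holds 1 copy, which begins 234 bases before the start. Sp5 holds 2 copies, which begin 204 and 104 bases before the start, and the second is part of a longer match to ATCAAAG, found on either strand in 3.73% of all windows. A match is a description of these letters and not a bound site. The sequences run 5′ to 3′ on the gene's strand (+), with the motif in capitals, T at chr17:8434173-8434472 and Sp5 at chr2:70474673-70474972.
T: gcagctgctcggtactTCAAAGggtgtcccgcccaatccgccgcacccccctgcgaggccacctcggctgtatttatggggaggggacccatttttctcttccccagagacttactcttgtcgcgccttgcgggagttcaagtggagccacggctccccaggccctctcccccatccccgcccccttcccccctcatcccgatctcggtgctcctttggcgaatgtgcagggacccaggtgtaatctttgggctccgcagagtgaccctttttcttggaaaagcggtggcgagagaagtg
Sp5: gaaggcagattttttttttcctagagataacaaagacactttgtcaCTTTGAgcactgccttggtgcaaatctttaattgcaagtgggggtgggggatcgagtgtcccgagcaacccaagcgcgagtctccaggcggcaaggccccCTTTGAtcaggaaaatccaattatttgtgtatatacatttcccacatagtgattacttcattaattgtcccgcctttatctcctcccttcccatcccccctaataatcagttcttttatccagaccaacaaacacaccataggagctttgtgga

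The table holds no column per library, and each library's reads were worked out as whole numbers from its means for 19823 genes, all 10 Wnt genes among them. The counts sum to 26575290 reads in HA and 11010078 in HB, against 11234409 in LA and 10630452 in LB, and were divided by the recovered size factors to give normalized reads. Lncenc1 had 6400 and 7250 normalized reads in HA and HB, against 2126 and 2121 in LA and LB. The 10 naive pluripotency markers examined, Pou5f1, Nanog and Esrrb among them, summed to 74552 and 70189 normalized reads in HA and HB, against 64411 and 59578 in LA and LB. Of the 10, 9 had positive fold changes and 1 a negative one. That gene, Nr0b1, named after its values were seen, had 1570 and 1076 in HA and HB, against 2006 and 1220 in LA and LB. The 14 streak and mesoderm genes found, described further below, summed to 892 and 1027 in HA and HB, against 1017 and 1132 in LA and LB. Their sums thus overlapped between the groups. Markers of primitive endoderm and of fibroblasts were low, and the sums of these lists were lower in both high libraries. The 6 primitive endoderm markers summed to 64.2 and 69.0 normalized reads in HA and HB, against 87.5 and 76.6 in LA and LB. They did not go the same way. Gata4 had 29.8 and 28.9 in HA and HB, against 11.1 and 21.0 in LA and LB. Dab2 had 10.8 and 2.51, against 28.3 and 19.8, and Pdgfra overlapped between the groups. The 4 fibroblast markers found summed to 21.0 and 26.3, against 50.5 and 48.2. Of these, Thy1 had 10.3 and 12.5 in HA and HB, against 40.7 and 18.5 in LA and LB. The collagen genes Col1a1, Col1a2 and Col3a1 overlapped between the groups. The part of these cells in the results was not tested.

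The 10 genes did not move together. T was higher in the Lncenc1-high group at an adjusted p under 0.05, the threshold used here, Cdx2 had a fold change of like size on far fewer reads, and Sp5 and Nkd1 had fold changes toward the Lncenc1-low group. Of the 10, 1 passed a DESeq2 adjusted p under 0.05 in the authors' deposited table, T, and 9 did not. The same threshold was passed by 1.53% of all 14070 tested genes, of which the part with positive fold changes made up 0.505% and the part with negative ones 1.02% of all tested. At an unadjusted p under 0.05 there were 3 (T, Cdx2 and Sp5), against 8.82% of all tested genes. The fold changes that the authors' deposited table lists ran, in log2, from -1.02 to 2.51, 6 positive and 4 negative, with a median of 0.22 against -0.01 over all tested genes. Both high libraries lay above both low ones in 4 genes (T, Cdx2, Axin2 and Lef1), the reverse held in 3 (Sp5, Nkd1 and Ctnnb1), and the groups overlapped in 3 (Cdx1, Tcf7 and Tcf7l1). Among tested genes with recovered counts, 20.6% had the first pattern, 20.7% the second and 41.3% either. The number called among the 10 moved with the setting: 1 without HA, where 0.4% of all genes were called, 0 without HB (0.57%), 2 without LA (1.41%), 0 without LB (0.349%), 2 with library totals (1.64%), 1 with no filter on low values (0.897%) and 0 by voom (0.0569%).

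**Figure D1:**
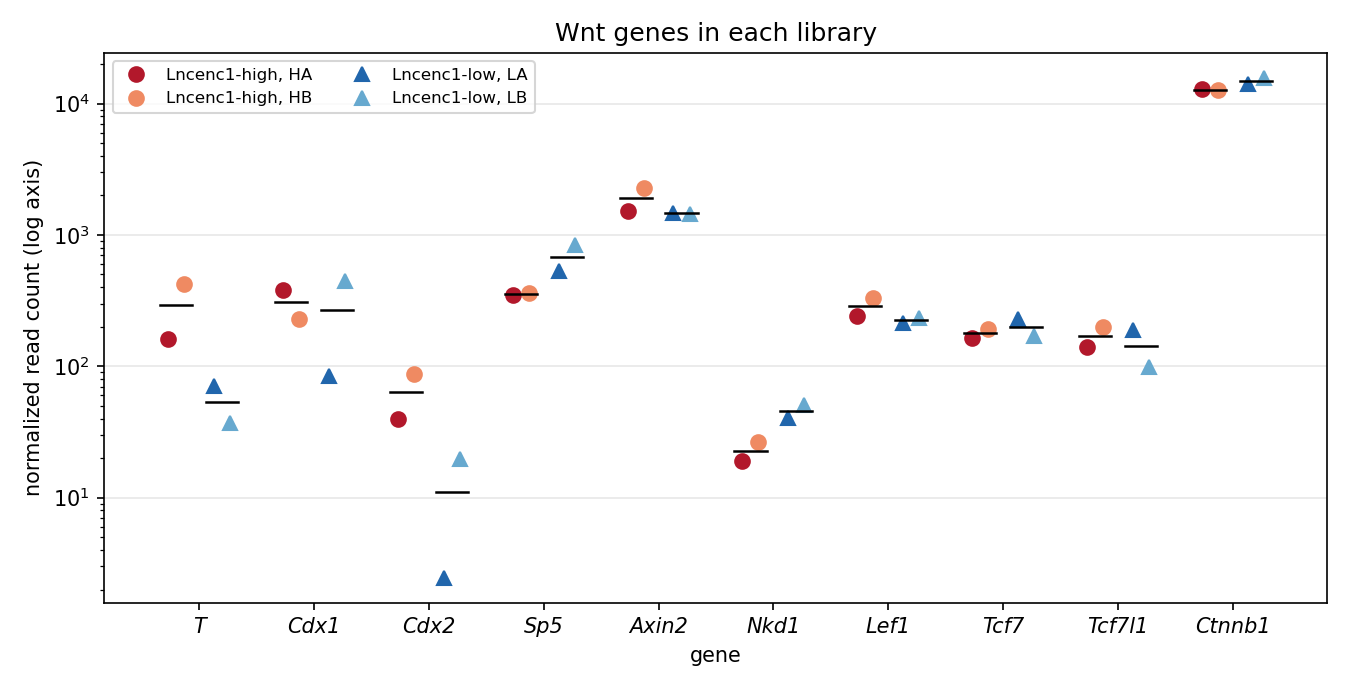
Normalized read count (log axis) of the 10 Wnt genes in the libraries HA and HB of the Lncenc1-high group (circles) and LA and LB of the Lncenc1-low group (triangles). Black bars are group means of 2 libraries. T and Cdx2 are higher in both high libraries, Sp5 and Nkd1 in both low ones, and the low libraries of Cdx1 stand 5.35-fold apart.

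T, the T-box transcription factor that defines the primitive streak and early mesoderm, had 162 normalized reads in HA and 427 in HB, against 70.2 in LA and 37.1 in LB. The groups did not overlap, but HA stood closer to LA than to HB. The means were 294 ± 187 normalized reads in the Lncenc1-high group and 53.7 ± 23.5 in the Lncenc1-low group (SD, n = 2 each). The authors' deposited table gives T a log2 fold change of 2.45 ± 0.50 (standard error), a 5.46-fold difference, with a DESeq2 adjusted p of 0.000322. By this fold change T was number 4 of the 71 genes called higher in the Lncenc1-high group. The high libraries differed 2.63-fold between themselves, and only 0.267% of the 9729 tested genes that averaged 100 normalized reads or more differed as much between HA and HB. In a negative binomial refit T was not called without HB (log2 fold change 1.60, adjusted p = 0.381) or without LB (2.06, adjusted p = 0.122), and it was called without HA (2.99, adjusted p = 0.000665) and without LA (2.98, adjusted p = 0.0011). Limma voom on the recovered counts did not call T (2.13, adjusted p = 0.409).

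Cdx2, the caudal homeobox factor of trophectoderm and posterior embryo, had 40.0 normalized reads in HA and 87.8 in HB, against 2.46 in LA and 19.8 in LB. The lowest value rests on 2 reads, with an exact 95% Poisson interval from 0.298 to 8.90 normalized reads that covers counting error only. The groups did not overlap, and the low libraries stood 8.02-fold apart. The authors' deposited table gives Cdx2 a log2 fold change of 2.51 ± 0.90 (standard error) with a DESeq2 adjusted p of 0.177, so the largest fold change of the 10 did not pass. It ranged from 1.68 without LA to 4.69 without LB in the refit, with adjusted p from 0.156 to 0.999.

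Cdx1, the caudal factor that responds directly to Wnt in the posterior embryo, behaved unlike Cdx2. It had 384 normalized reads in HA and 228 in HB, against 83.8 in LA and 449 in LB, so its highest and its lowest library belonged to the same group. A split as large as that between LA and LB was seen in 0.411% of those 9729 genes. The log2 fold change in the authors' deposited table was 0.20 ± 1.11 (standard error), and its 95% interval ran from -1.97 to 2.37. Its sign turned in the refit without HA (-0.22) and without LA (-0.55).

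Sp5, a zinc-finger factor and one of the most direct Wnt targets, which restrains other Wnt targets, had a fold change of the opposite sign to that of T. It had 351 and 364 normalized reads in HA and HB, against 529 in LA and 839 in LB. The high libraries lay close together and both below the low ones, at means of 357 ± 8.95 in the Lncenc1-high group and 684 ± 220 in the Lncenc1-low group (SD, n = 2 each). The authors' deposited table gives Sp5 a log2 fold change of -0.94 ± 0.29 (standard error), with a DESeq2 adjusted p of 0.0666, just outside the threshold. Sp5 was called in the refit without LA (-1.23, adjusted p = 0.0389) and with library totals in place of size factors (-0.97, adjusted p = 0.0491), but the refit without LB gave -0.57 with an adjusted p of 1.00.

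The feedback inhibitors Axin2 and Nkd1, commonly read as reporters of Wnt activity, did not pass in either direction. Axin2, a scaffold of the destruction complex, had 1532 and 2258 normalized reads in HA and HB, against 1468 and 1445 in LA and LB. HB alone stood apart, and the log2 fold change of 0.38 ± 0.23 (standard error) in the authors' deposited table came to 0.07 without HB. Its 95% interval in the authors' deposited table, on the linear scale, ran from 0.946 to 1.79-fold. Nkd1, an inhibitor that binds Dishevelled, had 19.0 and 26.3 normalized reads in HA and HB, against 40.7 and 50.7 in LA and LB. The groups did not overlap, on 21 to 41 reads per library, and the log2 fold change in the authors' deposited table was -1.02 ± 0.74 (standard error), with a DESeq2 adjusted p of 0.837.

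The TCF and LEF genes differed by less than their errors or little more. Lef1, an activating partner of β-catenin and itself a Wnt target, had 241 and 331 normalized reads in HA and HB, against 213 and 235 in LA and LB, at a log2 fold change of 0.35 ± 0.33 (standard error) in the authors' deposited table. Tcf7, which codes for TCF1 and mostly activates, had 165 and 192, against 228 and 169 (-0.16 ± 0.36, standard error, in the authors' deposited table). Tcf7l1, the repressor that counters pluripotency genes until β-catenin removes it, had 141 and 199, against 189 and 98.9 (0.24 ± 0.43, standard error, in the authors' deposited table). The 95% intervals were wide, from 0.812 to 1.99-fold for Lef1, 0.547 to 1.47-fold for Tcf7 and 0.653 to 2.13-fold for Tcf7l1. The sign turned without LA for Tcf7 (0.07) and without HB or LB for Tcf7l1 (-0.03 and -0.15).

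Ctnnb1, which codes for β-catenin, was the most evenly measured of the 10. It had 12869 and 12644 normalized reads in HA and HB, against 14157 and 15656 in LA and LB. Both low libraries were higher, but by little: the log2 fold change in the authors' deposited table was -0.22 ± 0.18 (standard error), with a DESeq2 adjusted p of 0.876 and a 95% interval from 0.674 to 1.09-fold. This is an RNA level, while the pathway acts through the stability of the protein, which was not measured.

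**Figure D2:**
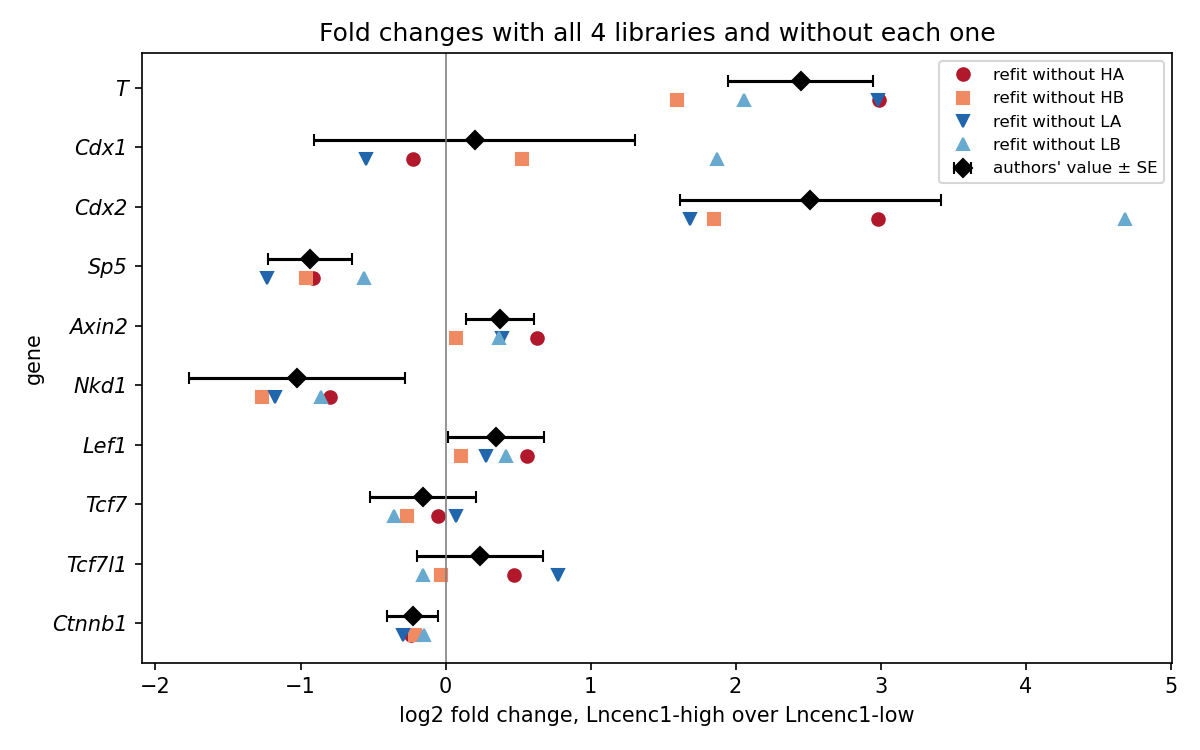
Log2 fold change, Lncenc1-high over Lncenc1-low, of the 10 Wnt genes. Black diamonds are the authors' values with their standard errors, and coloured symbols are refits without 1 library each, which lie from 1.60 to 2.99 for T and on both sides of 0 for Cdx1, Tcf7 and Tcf7l1.

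Per kilobase of annotated exon, the order of the genes changed between the groups. In the Lncenc1-high group Ctnnb1 led with a mean of 2457 normalized reads per kilobase, followed by Axin2 at 344, Cdx1 at 175, Sp5 at 170, T at 127, Tcf7 at 68.0, Tcf7l1 at 43.3, Lef1 at 32.5, Cdx2 at 28.3 and Nkd1 at 4.97. In the Lncenc1-low group Ctnnb1 led at 2871, followed by Sp5 at 326, Axin2 at 264, Cdx1 at 152, Tcf7 at 75.7, Tcf7l1 at 36.6, Lef1 at 25.5, T at 23.2, Nkd1 at 10.02 and Cdx2 at 4.92. T thus stood above Tcf7, Tcf7l1 and Lef1 in the first order and below them in the second. Axin2 was above every gene below it in both high libraries, while the per-kilobase values of Cdx1, Sp5 and T overlapped between HA and HB. T also overlapped there with Tcf7 (70.1 for T in HA, 73.1 for Tcf7 in HB), and Tcf7l1, Lef1 and Cdx2 overlapped among themselves. In the low libraries Sp5 overlapped with both Axin2 and Cdx1, and Axin2 and Cdx1 did not overlap with each other. Cdx1, at 47.9 in LA, also overlapped with Tcf7 and Tcf7l1, and Lef1, Tcf7l1 and T overlapped among themselves. Exons of all annotated transcripts were joined for the length, which lowers the value of genes with long alternative exons such as Lef1 (8788 bases).

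Few genes of the rest of the pathway passed, at a share near that of all genes. Of 103 further Wnt pathway and target genes, 97 were in the table and 72 were tested. Of the 72, 1 (1.39%) passed a DESeq2 adjusted p under 0.05 in the authors' deposited table, against 1.53% of all tested genes, and 71 did not. At an unadjusted p under 0.05 there were 8 of the 72, against 8.82% of all tested genes. Their median log2 fold change was 0.03, with 38 positive and 34 negative.

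The called gene was Sfrp1, a secreted protein that binds Wnt ligands and Frizzled receptors. It had 1685 and 1700 normalized reads in HA and HB, against 784 and 664 in LA and LB, so it was higher in the Lncenc1-high group with little spread in either. The authors' deposited table gives Sfrp1 a log2 fold change of 1.23 ± 0.22 (standard error), with a DESeq2 adjusted p of 8.99e-06. It was called in the refit with each of the 4 libraries left out in turn, with adjusted p from 0.000191 to 0.0134, and voom did not call it (adjusted p = 0.0856).

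Most Wnt ligand genes were scarce: 14 of the 17 ligand and secretion genes found averaged under 50 normalized reads. Of these 17, 5 were tested, and the groups overlapped in Wls and Wnt8a of these. All 5 had negative fold changes, beside a median log2 fold change of -0.01 over all tested genes. The DESeq2 test of the authors' deposited table and voom both called 0, and 1 had an unadjusted p under 0.05. Over all tested genes DESeq2 called 1.53%, voom called 0.0569%, and 8.82% had an unadjusted p under 0.05. At these shares 0 called says little about lists as small as this and those below. Wls, the carrier of Wnt ligands to the cell surface, had 417 and 418 normalized reads in HA and HB, against 296 and 611 in LA and LB. Porcn, the acyltransferase that makes Wnts active, had 195 and 104, against 201 and 361, at a log2 fold change of -0.90 ± 0.42 (standard error) and a DESeq2 adjusted p of 0.475 in the authors' deposited table. Wnt5b had 65.2 and 82.8, against 111 and 137.

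Of the 20 receptor and coreceptor genes found, 7 averaged under 50 normalized reads. Of 16 tested receptors and coreceptors the DESeq2 test of the authors' deposited table and voom both called 0 (1.53% and 0.0569% of all tested genes). The Frizzled receptor gene Fzd5 was the 1 that had an unadjusted p under 0.05, against 8.82% of all tested genes. Fzd5 had 4964 and 3401 normalized reads in HA and HB, against 2408 and 2646 in LA and LB, at a log2 fold change of 0.73 ± 0.22 (standard error) and a DESeq2 adjusted p of 0.0624 in the authors' deposited table. The coreceptor Lrp6 was at 0.15 ± 0.21 (standard error), and Lgr4, the R-spondin receptor, at 0.00 ± 0.23 (standard error) in the authors' deposited table. Of 16 tested genes of the destruction complex and Dishevelled both tests called 0, while 2 had an unadjusted p under 0.05 in opposite directions (Dvl1 and Btrc, named after their values were seen), and the median log2 fold change was 0.06. The authors' deposited table gives Csnk1a1, the priming kinase, 0.18 ± 0.20 (standard error), the tankyrase gene Tnks2 0.07 ± 0.17 (standard error), and Csnk1d, another CK1 kinase, -0.31 ± 0.20 (standard error).

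Of 13 tested Wnt inhibitors Sfrp1 was the 1 called, and the list's median log2 fold change was -0.08. Notum, the enzyme that strips Wnts of their lipid, had 1143 and 1419 normalized reads in HA and HB, against 1747 and 436 in LA and LB, so the low libraries fell on both sides of the high ones. Znrf3, a ubiquitin ligase that clears Frizzled receptors, was at -0.08 ± 0.28 (standard error), and Kremen1, a receptor for Dickkopf, at -0.13 ± 0.31 (standard error) in the authors' deposited table. Of 14 tested nuclear cofactors of β-catenin the DESeq2 test of the authors' deposited table and voom both called 0 (1.53% and 0.0569% of all tested genes). An unadjusted p under 0.05 was held by 0, against 8.82% of all tested genes. The corepressor genes Ctbp2 and Tle4 were at -0.29 ± 0.19 (standard error) and 0.18 ± 0.20 (standard error) in the authors' deposited table.

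Other Wnt targets had 4 positive and 7 negative fold changes among 11 tested, with a median log2 fold change of -0.08. Of these 11, the DESeq2 test of the authors' deposited table and voom both called 0 (1.53% and 0.0569% of all tested genes). An unadjusted p under 0.05 was held by 2, in opposite directions, against 8.82% of all tested genes. Jun, an AP-1 factor, had 37.5 and 27.6 normalized reads in HA and HB, against 53.0 and 132 in LA and LB. Myc, chosen after its values were seen, had 85.7 and 67.7, against 24.6 and 27.2, at a log2 fold change of 1.57 ± 0.63 (standard error) and a DESeq2 adjusted p of 0.288 in the authors' deposited table. The cyclin gene Ccnd1 was at -0.08 ± 0.22 (standard error) and Bmp4 at -0.54 ± 0.36 (standard error) in the authors' deposited table.

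**Figure D3:**
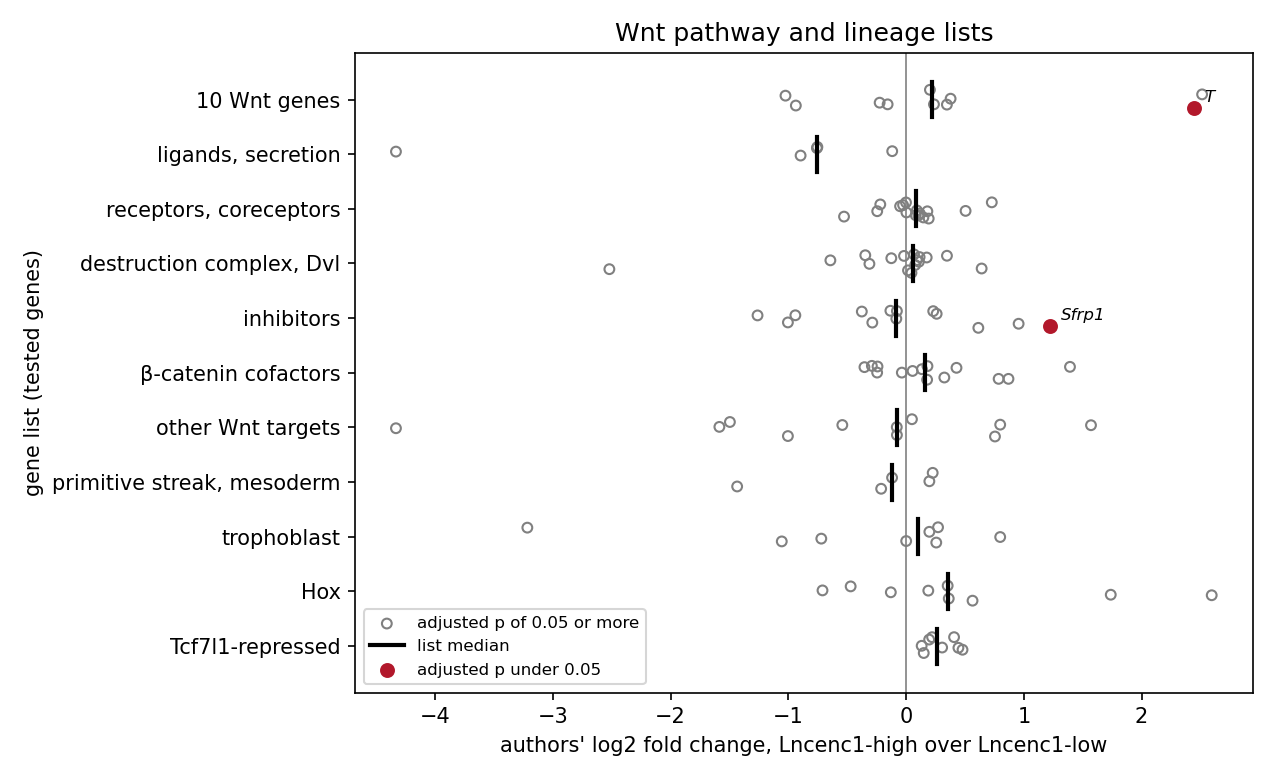
Authors' log2 fold change, Lncenc1-high over Lncenc1-low, of the tested genes of each list (circles), with the list's median as a black bar and genes at an adjusted p under 0.05 filled in red. T and Sfrp1 are the filled points, and the medians of the lists drawn lie between -0.76 and 0.35.

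T and Cdx2 were set beside the genes that share their embryonic settings. Among genes of the primitive streak and mesoderm 14 were found and 5 were tested. Of the 5, the DESeq2 test of the authors' deposited table and voom both called 0 (1.53% and 0.0569% of all tested genes). An unadjusted p under 0.05 was held by 0, against 8.82% of all tested genes. Eomes, the other T-box gene of the streak, had 41.6 and 72.8 normalized reads in HA and HB, against 50.5 and 48.2 in LA and LB, and overlapped between the groups. The streak ligand Nodal was at -0.12 ± 0.23 (standard error) and Kdr, an endothelial growth factor receptor, at -1.44 ± 0.75 (standard error) in the authors' deposited table. The 9 found but not tested had at most 16.3 normalized reads in any library, the value of Snai1 in HB, and did not go one way. Of these 9, named after their values were seen, Mixl1 had 2.05 and 7.53 normalized reads in HA and HB, against 0 in both low libraries. Wnt3 had 0 and 2.51 in HA and HB, against 9.86 and 14.8 in LA and LB. In bulk RNA fewer cells with a gene and less of its RNA per cell cannot be told apart.

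The trophoblast list held 8 tested genes. Of these, 0 were called by the DESeq2 test of the authors' deposited table or by voom (1.53% and 0.0569% of all tested genes). Against 8.82% of all tested genes, 2 of the 8 had an unadjusted p under 0.05. Both had negative fold changes: Tfap2c at -0.72 ± 0.32 (standard error) and the keratin gene Krt7, chosen after its values were seen, at -3.22 ± 1.17 (standard error), in the authors' deposited table. Krt8 had 99.6 and 213 normalized reads in HA and HB, against 72.7 in LA and 577 in LB. The 3 genes found but not tested, Gata2, Gata3 and Hand1, had 0 to 14 reads per library. Ascl2, a trophoblast factor also named after its values were seen, had 26.2 and 27.6 normalized reads in HA and HB, against 3.70 in LA and 27.2 in LB. Tead4 was at 0.26 ± 0.27 (standard error) in the authors' deposited table.

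Hox genes, which caudal factors help to switch on in the posterior embryo, were low. Of 26 listed 19 were found and 9 were tested. The DESeq2 test of the authors' deposited table and voom called 0 of the 9 (1.53% and 0.0569% of all tested genes). Against 8.82% of all tested genes, 1 of the 9 had an unadjusted p under 0.05. That gene, Hoxd9, chosen after its values were seen, had 27.2 and 32.6 normalized reads in HA and HB, against 6.16 and 3.71 in LA and LB (DESeq2 adjusted p of 0.362 in the authors' deposited table). Hoxb9, the most abundant, had 71.4 and 51.4, against 88.7 and 114. The list's median log2 fold change was 0.35.

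The 8 pluripotency genes known to be repressed by Tcf7l1 all had positive fold changes of small size, but the groups overlapped in some of them. Esrrb had 8784 and 7736 normalized reads in HA and HB, against 8125 and 6768 in LA and LB. Nr5a2 had 2267 and 2146, against 2355 and 1432. In the authors' deposited table their log2 fold changes ran from 0.13 to 0.48 with a median of 0.26, against -0.01 over all tested genes. DESeq2 there and voom both called 0 (1.53% and 0.0569% of all tested genes). Against 8.82% of all tested genes, 2 of the 8 had an unadjusted p under 0.05 (Nanog and Tbx3, the second named after its values were seen). Nanog had 10902 and 9813 normalized reads in HA and HB, against 8955 and 6664 in LA and LB. Tfcp2l1 and Esrrb were at 0.13 ± 0.17 (standard error) and 0.15 ± 0.19 (standard error), and Nr5a2 at 0.22 ± 0.25 (standard error), in the authors' deposited table. The pluripotency markers as a sum were lowest in LB, the lowest library of T, while Cdx2 was lowest in LA. The part of these markers in the results for T and Cdx2 was not tested.

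The genes whose pattern over the 4 libraries lay nearest to that of T were Vrtn, Nupr1, Chac1, A730049H05Rik and Hdac7, among 10994 genes that averaged 50 normalized reads or more. Likeness was the Euclidean distance between centred log2(normalized count + 1) values, 0.40 for Vrtn and 0.90 to 0.98 for the other four. Vrtn, a gene known for its effect on vertebral number in pigs, had 77.5 and 138 normalized reads in HA and HB, against 27.1 and 13.6 in LA and LB. Like T it was highest in HB and lowest in LB. The 5 genes nearest to Cdx2 were Pramef17, Lrrc29, Morn4, Ndufa4l2 and Atp2a3, at distances of 1.34 to 2.07. The distance between T and Cdx2 themselves was 2.52, since LA was the lowest library of Cdx2 and LB that of T. With 4 libraries such distances are a description.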

How the data were processed

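Stranded libraries of total RNA without ribosomal RNA were sequenced, as the labels' protocols say. TopHat2, HTSeq, DESeq2 1.8.2 and mm9 are named in the submitters' processing notes. Sources used here name no annotation release and no strand setting of the counting. Per the file headers, the authors deposited a mean normalized read count (a signal) over the 4 libraries, a log2 fold change with its standard error, a Wald score, and a p-value with its adjusted form. An adjusted p-value was given for 14070 genes, with means of at least 8.36. The authors' two-sided Wald test at an adjusted p under 0.05 is the main result.

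Counts per library were recovered as the whole numbers whose sum, each over its size factor, gives the deposited mean to 15 significant digits. The deposited fold change had to be met within 0.001 by a lone solution, or within 1e-05 where several were found. Lone solutions with almost no reads in a group were kept without this check. The recovery left out 17 genes with means of at least 33504, which hold 12.2% of the summed means. The library totals used as an alternative are sums of the recovered counts, so they leave these genes out too. In 13907 of 14048 tested genes the refit matched the deposited log2 fold change to within 1e-05. Run on simulated data of 3813 genes, the method accepted 3812, and all 3812 were right. Its accuracy on the deposited data was not tested, because the table has no column per library to compare with. The size factors were 1.95 in HA and 0.797 in HB, against 0.811 in LA and 0.809 in LB, and 3 reads are 1.54 and 3.76 normalized reads in HA and HB, against 3.70 and 3.71 in LA and LB.

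Alternatives were a Wald refit of a negative binomial model whose dispersion follows from the deposited standard error (without 1 library each, where a lone library is taken to vary like the rest, or with library totals), adjustment over all 19840 genes, and limma 3.58.1 voom (R 4.3.3). In simulated data of 14048 genes for this comparison, the Wald test called 44% and voom 34% of 50 genes changed 2-fold. Of unchanged genes they called 8 and 18. The Wald test was given the dispersions that made the data, so its share is not the power of the authors' test. The planned edgeR test was not run: no deposited column holds counts. Names came from Ensembl identifiers (19707 of 19840 matched) and exon lengths from GENCODE M21, which is of another build. The members and lists were chosen with earlier results of these data known. Named are the 10 genes, list members that passed, up to 4 of the most abundant genes per list, and the 5 nearest genes to T and to Cdx2. Others are marked as chosen after their values were seen.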

Additional observations from a re-analysis of the deposited data

How the results depend on the processing

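Of 70 recomputed log2 fold changes of the 10 genes under 7 settings, 65 kept their direction. The direction held under every setting for 7 genes and turned for Cdx1 (-0.55 to 1.87 without 1 library each, -0.22 without HA), Tcf7 (-0.36 to 0.074, the highest without LA) and Tcf7l1 (-0.15 to 0.78, -0.03 without HB). Leaving out 1 library each gave 0 to 2 called genes among the 10 and 49 to 197 over all genes, against 1 and 215 with all 4, and log2 fold changes of 1.60 to 2.99 for T and -1.23 to -0.57 for Sp5. Voom called 0 of the 10, 0 of the pathway genes and 8 genes in all, with 2.13 for T. Library totals, which leave out the 17 genes without recovered counts, gave 2 called genes among the 10, T and Sp5 (-0.97). They shifted the median of all genes by -0.03. The cause of these changes was not tested. No paired analysis was possible because the table has no column per library to carry the replicate numbers of the labels. Depth limits Cdx2 and Nkd1, with 2 to 78 reads per library.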

Other observations

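Some genes of the Wnt and lineage lists stood apart in LB alone, and these were chosen after their values were seen. Wnt8a, a ligand of the early streak, had 4.62 and 0 normalized reads in HA and HB, against 1.23 in LA and 95.2 in LB. Its log2 fold change in the authors' deposited table, -4.33 ± 2.99 (standard error), did not pass. Id2, an inhibitor of helix-loop-helix factors, had 17.5 and 7.53 normalized reads in HA and HB, against 8.63 in LA and 67.97 in LB. The highest values of Cdx1, Sp5, Krt8, Kdr and Jun were also those of LB.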
